A study of Drosophila melanogaster with 2 samples.

Results

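The genes described here encode subunits of the vacuolar proton pump (V-ATPase) of Drosophila melanogaster. They were taken as every gene on the array whose symbol in the RefSeq gene table starts with Vha, reached through the CG number that names each probe. There were 33 such genes with 39 probes, among 13137 genes and 14593 probes on the array, and 15 of the 33 had a probe above background and were tested. RNA came from whole female larvae of the third instar, labelled day 6, after 24 h at 30 °C. The ablated larvae had the genotype rnGAL4, UASegr, tubGAL80ts/+, in which a rotund driver expresses the cell death gene eiger in the pouch of the wing disc while temperature-sensitive GAL80 is inactive. The control larvae carried TM6, Tb1 and tubGAL80, so they differed from the ablated larvae by a balancer chromosome and the Tubby marker as well as by lacking the driver and eiger. Each of 2 two-colour arrays set 1 ablated RNA against 1 control RNA, with ablated RNA in Cy5 on replicate 1 and in Cy3 on replicate 2. Whether the replicates were separate cultures is not stated, so every p-value measures only the spread between these 2 arrays, which may be technical.

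The V-ATPase is a rotary enzyme that uses ATP to pump protons into endosomes, lysosomes and secretory vesicles, and across the outer membrane of some epithelial cells. Its peripheral sector, V1, hydrolyses ATP and holds subunits A to H, while its membrane sector, V0, carries the protons and holds subunits a, c, c'', d and e with accessory proteins. In flies the pump is abundant in the Malpighian tubules, where it energizes fluid secretion, and in the midgut, where it acidifies the copper cell region. Several subunits are encoded by a family of genes in which 1 copy is widely expressed and further copies are restricted, many of them to the testis.

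Of all gene spots, 38.1% (ablated) and 26.9% (control) exceeded local background by 2 SD on replicate 1, against at most 17.6% in either channel of replicate 2. With 2 arrays, their number sets the precision of all that follows. Across 5971 tested genes the log2 ratios of ablated over control ran against each other on the dye-swapped arrays (Pearson's r = -0.53 across genes, which are not independent replicates). With r below -0.3, the direction of the ratios is not settled. The dyes were taken as labelled, and values with the sign of replicate 2 turned are given beside them. Which array would need turning is not known. Turning replicate 1 instead would reverse the sign of every turned value and exchange the turned counts of higher and lower. A sign kept after the turn is therefore no support for a direction. The probes of egr and Tb had 0 channels above background, so they gave no check of the labels. For rn, the driver locus, the CG32466-RA probe read 927 (ablated) and 433 (control) on replicate 1 and 154 and 443 on replicate 2, and the CG32467-RA probe 143 and 138, then 897 and 712, so these probes did not settle the direction either. As labelled, 5 of 5 salivary gland markers were lower in ablated larvae on both arrays (median log2 ratio -1.78), beside 22.4% of all genes. With the sign of replicate 2 turned, the arrays would oppose each other for each of these markers. They were not used to settle the direction. Among larval tissue markers, 5 of 5 salivary gland, 5 of 5 fat body, 3 of 5 muscle, 2 of 6 midgut and 2 of 5 Malpighian tubule genes were above background in at least 1 channel. Of all genes on the array, 45.5% had a probe above background in at least 1 channel. Both tubule markers above background, Alp4 and NtR, passed in the ablated channel of replicate 1 only. In whole larvae, fewer cells of a type and less RNA per cell cannot be told apart.

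The pump genes were detected about as often as other genes. A probe of 15 of the 33 (45.5%) exceeded background in at least 1 of the 4 channels, beside 45.5% of all genes on the array. On replicate 1 there were 13 pump genes above background in ablated and 11 in control larvae, and on replicate 2 there were 7 and 6. Every channel was above background for 4 genes, Vha100-2, Vha16-1, Vha16-5 and Vha36-3. A further 3, Vha36-2, Vha44 and VhaM9.7-c, had at least 1 channel above background on each array. For 7 of the tested genes only replicate 1 measured the transcript, and for Vha36-1 only replicate 2. With a threshold of 1 SD in place of 2 SD, 21 pump genes were above background.

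The other 18 genes had no channel above background. They were Vha100-1, Vha100-3, Vha100-4, Vha13, Vha14-1, Vha14-2, Vha16-2, Vha16-3, Vha16-4, Vha26, Vha68-1, VhaAC45, VhaAC45RP, VhaM9.7-a, VhaM9.7-b, VhaM9.7-d, VhaPPA1-1 and VhaPPA1-2. Among them are subunits that every pump needs, such as Vha26 (subunit E) and Vha13 (subunit G), for which the probes set no level. The net signal of their 19 probes, the spot median minus the local background median, had a median of 30 intensity units and ran from -337 for Vha16-4 to 634 for Vha14-2. In 21 of 76 channel readings the spot was dimmer than its surroundings. The Vha14-2 spot read 634 (ablated) and 530 (control) on replicate 1, where its background SD was 568 and 475, which kept it under the threshold. Levels of different probes are not set against each other, since brightness also depends on the probe.

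**Figure D1:**
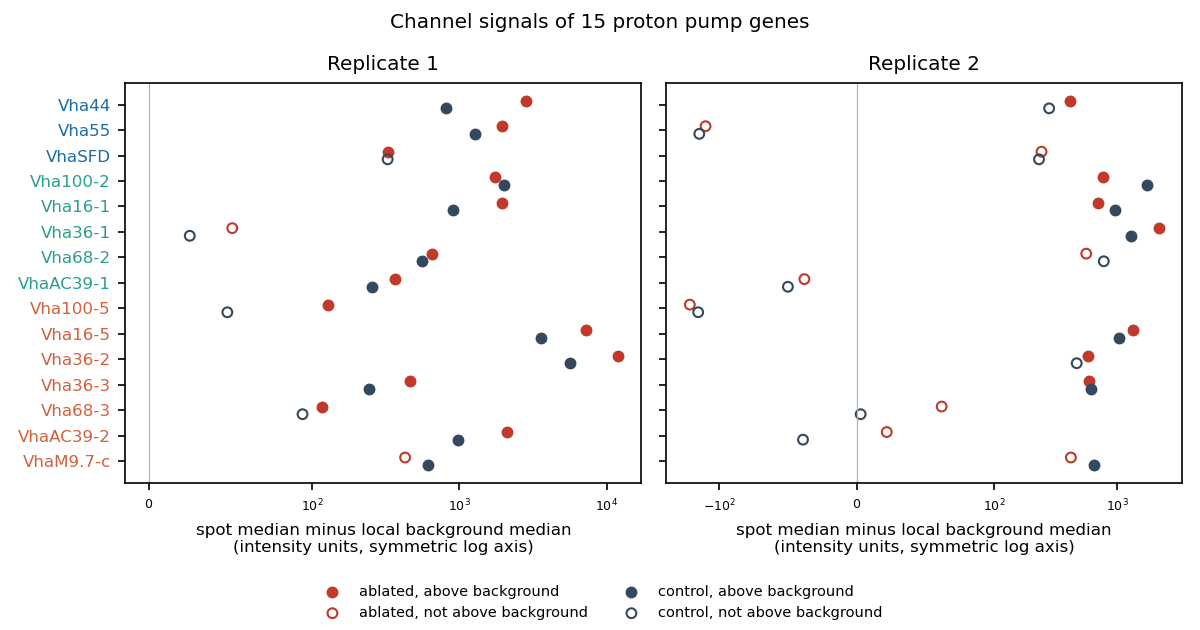
Net signal (spot median minus local background median, intensity units, symmetric log axis) of the probe standing for each of the 15 tested genes, by channel and array; filled points are above background and open points are not. Gene names are coloured by copy class, with single-copy subunits in blue, the widely expressed copy in green and further copies in orange. Filled points are fewer on replicate 2, where the spots of Vha55, VhaAC39-1 and Vha100-5 lie below 0 in both channels.

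In the comparison of ablated with control larvae, 0 of the 15 pump genes passed limma's test (Benjamini-Hochberg adjusted p under 0.05), as did 0 of the 5971 genes tested (0% called). The adjusted p was 0.996 for each of the 15, and with the spread between these 2 arrays a count of 0 does not show that the genes were alike in the groups. At an unadjusted p under 0.05 there was 1 pump gene, Vha100-2, beside 144 of all genes (2.41%). Mean log2 ratios of the 15 ran from -0.96 for Vha100-2 to 0.63 for Vha44, with a median of 0.048, beside 0.0092 over all genes tested. On single arrays the median was 0.23 on replicate 1 and -0.040 on replicate 2. In size, the median mean ratio regardless of sign was 0.25 for the pump genes and 0.19 for all genes.

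By direction, 6 pump genes were higher in ablated larvae on both arrays and 6 were lower on both, beside 24.5% and 22.4% of all genes. Thus 12 of 15 (80%) had the same sign on both arrays, where 46.8% of all genes did. Of the 15, however, 7 were above background on replicate 1 only and 1 on replicate 2 only. For those the sign on the other array came from spots not above background. Vha68-3 was tested through its ablated channel alone and VhaM9.7-c through its control channel alone. The share of 80% therefore does not show that the arrays gave alike measurements, and it lends no support to a direction. Of the 7 with a channel above background on each array, 3 were higher and 2 lower on both, so 5 of 7 kept their sign. Of the 2145 genes measured in this way 24.6% were higher and 19.9% lower on both, and 44.5% kept their sign. A difference of at least 1.5-fold the same way on both arrays was seen in 1 pump gene, Vha100-2, beside 2.51% of all genes. With the sign of replicate 2 turned, 3 pump genes were higher and 0 lower on both arrays, beside 27% and 26.1% of all genes, and 0 were called, beside 8.63% of all genes.

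**Figure D2:**
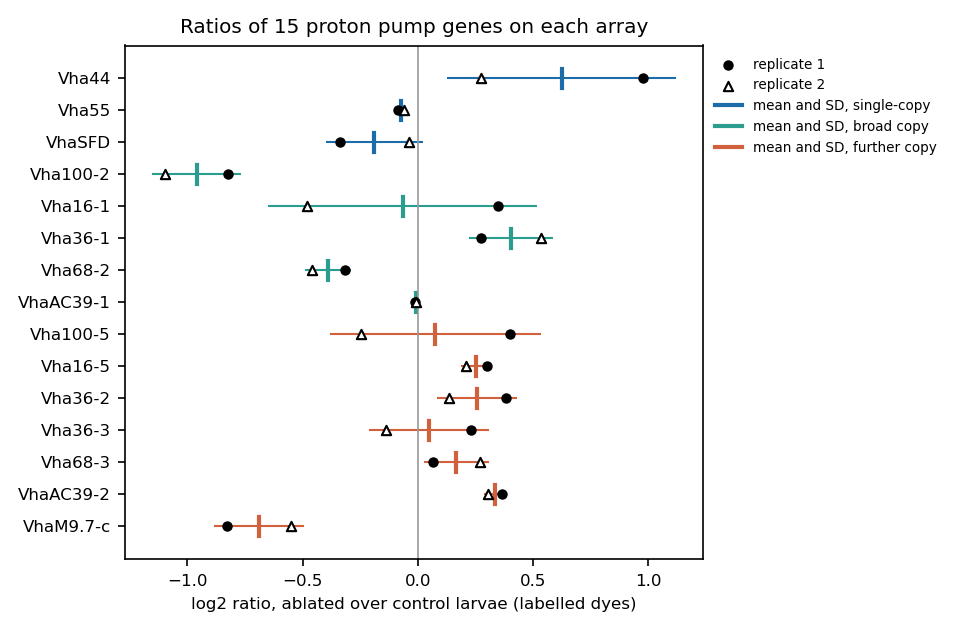
Log2 ratio of ablated over control larvae for the 15 tested genes, as labelled, with circles for replicate 1, triangles for replicate 2, and a vertical tick and bar for the mean and SD over the 2 arrays. Vha100-2 and VhaM9.7-c lie left of 0 on both arrays and Vha44 right of 0 on both, while Vha16-1, Vha36-3 and Vha100-5 straddle 0. For Vha100-5, Vha68-3 and VhaSFD the control larvae, and for VhaM9.7-c the ablated larvae, were not above background on either array.

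In the V1 sector, the catalytic subunit A is encoded by 3 genes. Vha68-2, the widely expressed copy, read 648 in ablated and 555 in control larvae on replicate 1 and 559 and 775 on replicate 2, where neither channel was above background. After loess normalization its log2 ratios were -0.32 and -0.46, a mean of -0.39 ± 0.10 (SD, n = 2), lower in ablated larvae on both arrays. Net signals and normalized ratios differ in sign on replicate 1 because loess centres the ratios at each brightness. With the sign of replicate 2 turned the mean was 0.071. Vha68-3 was above background only in the ablated channel of replicate 1, at 116 against 94 in control larvae, with log2 ratios of 0.067 and 0.27. The control larvae set no level for it, and a lower limit of its fold was under 1, so no fold is given.

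Vha55, the only gene for subunit B, which pairs with A in the ATPase ring, showed ratios close to 0. Its CG17369-RA probe read 1944 in ablated and 1278 in control larvae on replicate 1, but -129 and -145 on replicate 2. The log2 ratios were -0.087 and -0.060 (mean -0.074 ± 0.019), of which only the first comes from spots above background. The second probe, for CG17369-RB, was not above background in any channel.

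Vha44 encodes subunit C, which clamps V1 to V0 and leaves the complex when the sectors come apart. It had the highest mean ratio of the pump genes. The CG8048-RA probe read 2833 in ablated and 807 in control larvae on replicate 1, and 414 and 280 on replicate 2, where the control channel was not above background. The log2 ratios were 0.98 and 0.27, a mean of 0.63 ± 0.50 (limma, unadjusted p = 0.127, adjusted p = 0.996), higher in ablated larvae on both arrays. The difference was larger on replicate 1 than on replicate 2, and over processing alternatives with the labelled sign the mean ran from 0.33 to 1.19. With the sign turned it was 0.35. The second probe, for CG8048-RB, was at background in every channel.

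All 3 genes for subunit D, part of the central stalk that turns within the ring, were tested. Vha36-1, the widely expressed copy, read 51 and 25 in ablated and control larvae on replicate 1, both within background, and 2151 and 1297 on replicate 2. Its log2 ratios were 0.28 and 0.54, a mean of 0.41 ± 0.18, and only the second comes from spots above background. Its transcript thus stood clear of background on 1 array and was near 0 on the other. The mean ran from 0.13 with the mean of spot pixels to 1.22 with plain background subtraction, and was -0.13 with the sign turned.

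Vha36-2, a further copy, was bright on replicate 1, at 11895 in ablated and 5611 in control larvae, and read 582 and 468 on replicate 2, where the control channel was not above background. Its log2 ratios were 0.38 and 0.14, a mean of 0.26 ± 0.17. Vha36-3 was above background in all channels, at 461 and 243 on replicate 1 and 589 and 612 on replicate 2. Its log2 ratios of 0.23 and -0.14 differed in sign, and the mean of 0.048 ± 0.26 was smaller than the spread. Among the 3 copies, then, Vha36-1 and Vha36-2 had higher ratios in ablated larvae on both arrays and Vha36-3 did not. The replicate 1 ratio of Vha36-1 came from spots within background, and only Vha36-3 was above background in every channel.

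Of the remaining V1 subunits, E (Vha26), F (Vha14-1 and Vha14-2) and G (Vha13) had no gene above background. VhaSFD, for subunit H, which is needed for activity and silences V1 after release, was above background only in the ablated channel of replicate 1. It read 326 and 325 in ablated and control larvae on replicate 1 and 243 and 232 on replicate 2, with log2 ratios of -0.34 and -0.040. The control larvae set no level for it, so no fold is given.

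In the V0 sector, subunit a, which forms the proton channels with the c ring and directs the pump to particular membranes, is encoded by 5 genes. Vha100-2, the widely expressed copy, had the lowest ratio of the pump genes. Its CG18617-RA probe read 1752 in ablated and 2018 in control larvae on replicate 1, and 767 and 1721 on replicate 2, with every channel above background. The ablated larvae were thus dimmer on both arrays before any normalization. The log2 ratios were -0.82 and -1.10, a mean of -0.96 ± 0.19 (limma, unadjusted p = 0.0237, adjusted p = 0.996). The second probe, for CG18617-RB, was above background only in the ablated channel of replicate 1 and gave log2 ratios of 0.15 and -0.060. The probes thus gave different answers for Vha100-2. The mean ran from -1.12 with plain subtraction to -0.46 with both probes averaged. With the sign of replicate 2 turned it was 0.14.

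The other tested gene for subunit a was Vha100-5, above background only in the ablated channel of replicate 1, at 127 against 48 in control larvae. On replicate 2 it read -173 and -148. Its log2 ratios of 0.40 and -0.25 differed in sign, and no fold is given. Vha100-1, the copy known from neurons and synaptic vesicles, was not above background in any channel, and its net signals ran from -43 to 90.

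The proteolipid c forms the rotor ring that carries protons through the membrane. Vha16-1, the widely expressed copy, has 3 probes. The brightest, for CG3161-RA, read 1950 in ablated and 910 in control larvae on replicate 1, and 695 and 963 on replicate 2. Its log2 ratios were 0.35 and -0.48, a mean of -0.065 ± 0.58, so the arrays opposed each other. The CG3161-RD probe gave 0.27 and 0.42 (0.35 ± 0.10) and the CG3161-RB probe 0.17 and -0.38 (-0.11 ± 0.38). For CG3161-RD the control channel was not above background on either array. CG3161-RB was above background only in the ablated channel of replicate 1. The control larvae thus set no level for these probes. The ratios of all 3 probes were positive on replicate 1 and differed in sign on replicate 2. With the sign of replicate 2 turned, the brightest probe averaged 0.41.

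Vha16-5, a further copy of the proteolipid, was above background in every channel. It read 7202 in ablated and 3575 in control larvae on replicate 1, and 1330 and 1031 on replicate 2. The ablated channel was brighter on both arrays. The log2 ratios were 0.30 and 0.21, a mean of 0.25 ± 0.064, which ran from 0.081 with print-tip loess to 0.69 in the authors' deposited table. With the sign turned the mean was 0.045. Vha16-2, Vha16-3 and Vha16-4, and both genes for the related subunit c'', VhaPPA1-1 and VhaPPA1-2, were not above background.

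Subunit d couples the stalk to the ring. VhaAC39-1, the widely expressed copy, read 364 in ablated and 255 in control larvae on replicate 1 and -38 and -50 on replicate 2. Its log2 ratios were -0.010 and -0.0053, a mean of -0.0078 ± 0.0036, and -0.0025 with the sign of replicate 2 turned. VhaAC39-2 read 2117 and 974 on replicate 1 and 22 and -39 on replicate 2, with log2 ratios of 0.37 and 0.30 and a mean of 0.34 ± 0.046. For both genes the ratio on replicate 2 comes from spots at background, so the small SD does not show that 2 measurements of the transcript were alike.

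The small membrane subunit e has 4 genes, of which VhaM9.7-c was tested. It read 427 in ablated and 612 in control larvae on replicate 1, and 420 and 651 on replicate 2. The control channel was above background on both arrays and the ablated channel on neither. The log2 ratios were -0.83 and -0.55 (limma, unadjusted p = 0.0518, adjusted p = 0.996). Since the ablated larvae set no level, no fold is given. The mean of the 2 ratios, -0.69 ± 0.19, ran from -0.96 to -0.53 over processing alternatives and was -0.14 with the sign turned. The accessory genes VhaAC45 and VhaAC45RP were not above background.

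**Figure D3:**
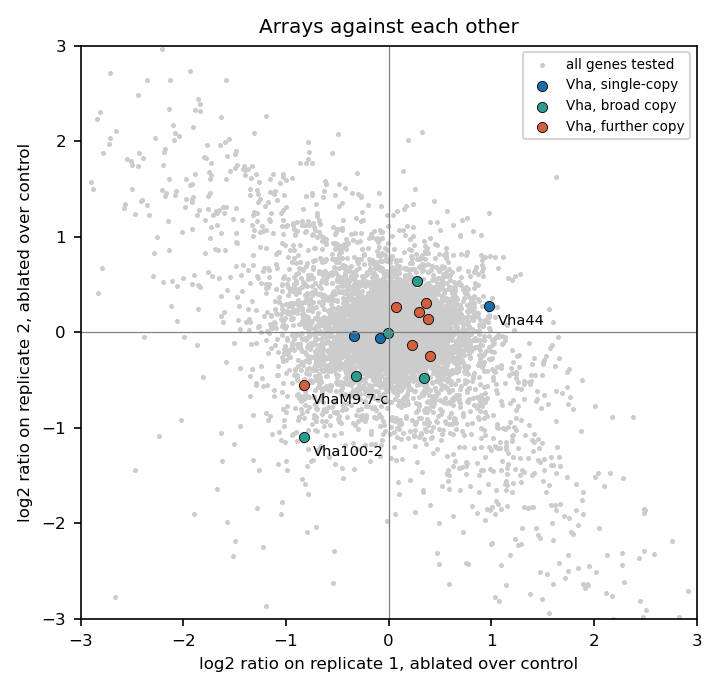
Log2 ratio of ablated over control larvae on replicate 1 (horizontal) against replicate 2 (vertical) for all 5971 tested genes in grey and the 15 pump genes in colour by copy class; 56 genes lie outside the axes, which end at 3 either way. The grey cloud slopes downwards (r = -0.53), while 12 pump genes lie in the upper right and lower left quadrants, with Vha100-2 and VhaM9.7-c farthest to the lower left. Of the 15, 7 were above background on replicate 1 only and 1 on replicate 2 only.

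The genes were then compared by copy class. The first class held 14 genes, 6 listed as single-copy and 8 that are the widely expressed copy of their subunit, and the second held 19 further copies. VhaAC45 was listed as single-copy although VhaAC45RP stands among the further copies, and neither was tested. Above background were 8 of the 14 and 7 of the 19. The tested genes of the first class had a median log2 ratio of -0.069, with 2 higher and 5 lower in ablated larvae on both arrays. The tested further copies had a median of 0.17, with 4 higher and 1 lower on both, VhaM9.7-c being the lower. Over all genes tested 24.5% were higher and 22.4% lower on both. With the sign of replicate 2 turned, 1 gene was higher and 0 lower on both in the first class, and 2 were higher and 0 lower among the further copies. Vha100-5, Vha68-3 and VhaSFD were tested through their ablated channel alone and VhaM9.7-c through its control channel alone, so these counts lend no support to a direction. Over all genes of each class without the filter the medians were -0.064 and 0.048. The difference between classes has no test, and 0 genes of either class were called. Over genes with a channel above background on each array the medians were -0.065 (3 genes) and 0.15 (4 genes). With the sign turned the medians of the tested genes were 0.034 and 0.045.

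Testis markers were examined beside the further copies, since the larvae were female and many further copies are known from testis. Of 9 testis genes on the array, 0 were above background in either channel of replicate 1 or in the control channel of replicate 2, and 1, aly, in the ablated channel of replicate 2. Among them betaTub85D, the tubulin of the male germ line, and the sperm genes dj and Mst87F were not above background in any channel. Of all genes on the array, 39.9% (ablated) and 28.4% (control) were above background on replicate 1, and 18.8% and 16.1% on replicate 2.

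Some family members lie side by side in the reference gene order. Vha68-2 and Vha68-3 are direct neighbours, with Vha68-1 after 1 further protein-coding gene. The ratios of Vha68-2 and Vha68-3 ran in opposite directions, lower for Vha68-2 and higher for Vha68-3 on both arrays. The control larvae set no level for Vha68-3, and on replicate 2 neither gene had a channel above background. Vha100-2 adjoins Vha100-4, Vha16-2 adjoins Vha16-3, and 1 gene separates VhaPPA1-1 from VhaPPA1-2. Of the genes in these 3 pairs only Vha100-2 was tested.

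The surroundings of the pump were described with a list of 30 genes for its assembly and control, for ion exchangers and channels that work beside it, and for lysosomal enzymes that need acid. Of these, 28 were on the array and 13 were tested. None was called by limma in either direction (0 higher, 0 lower, and 0 at an unadjusted p under 0.05). The median log2 ratio was 0.075, with 7 of 13 higher and 0 lower in ablated larvae on both arrays, beside 24.5% and 22.4% of all genes. CAH2, CtsF and nrv3 were tested through their ablated channel alone, the first 2 of them among the 7, so this count lends no support to a direction. With the sign of replicate 2 turned, 3 were higher and 3 lower on both.

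The 4 listed genes of smallest p were Rbcn-3B, Irk2, CAH2 and Atpalpha. Rbcn-3B, whose product helps V1 and V0 assemble, read 1230 in ablated and 459 in control larvae on replicate 1 and 117 and 57 on replicate 2. Its log2 ratios were 0.60 and 0.24, a mean of 0.42 ± 0.25 (limma, adjusted p = 0.996), and 0.18 with the sign turned. Like Vha44 it was higher in ablated larvae on both arrays, and most of the difference came from replicate 1. Each group was above background for Rbcn-3B on 1 array only. Irk2, an inward rectifier potassium channel, read 9860 and 5499 on replicate 1 and 88 and -273 on replicate 2. Its log2 ratios of 0.14 and 1.68 averaged 0.91 ± 1.09, so the mean rested on an array where the control spot was dimmer than its surroundings. CAH2, a carbonic anhydrase, had log2 ratios of 0.53 and 0.080, with the control larvae not above background on either array. Atpalpha, the sodium pump's catalytic subunit, was near background on replicate 1 (8 and 25) and read 748 and 424 on replicate 2, with log2 ratios of 0.066 and 0.51.

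Tissue markers were set beside these ratios, first those of organs rich in the pump. The summed net signal of 6 midgut markers was 9751 in ablated and 5983 in control larvae on replicate 1, and 5190 and 4438 on replicate 2. That of 5 Malpighian tubule markers was 1256 and 2219 on replicate 1 and -15 and -431 on replicate 2. These sums were taken before normalization. The midgut sum was higher in the ablated channel of both arrays, though only 2 of the 6 markers were above background in any channel. The tubule sum was lower in the ablated channel of replicate 1, but there no tubule marker was above background in the control channel. On replicate 2 no tubule marker was above background in either channel. The tubule sum thus set no direction on either array. The sum of 5 salivary gland markers was 8903 in ablated and 14287 in control larvae on replicate 1, and 1500 and 9907 on replicate 2. That of 4 cuticle markers was 53841 and 63522, then 13653 and 24746, so both sums were lower in the ablated channel of each array. For fat body (5 markers) the sums were 26013 and 22715, then 12320 and 8182, higher in the ablated channel of each array. Muscle (5 markers) read 16782 and 17293, then 3364 and 1535, and the arrays differed. After normalization the fat body genes did not follow their sum, with 0 of 5 higher and 3 lower on both arrays (median log2 ratio -0.0066). Both tested midgut genes were higher on both arrays (median 0.14). Of 2 tested tubule genes 0 were higher and 1 lower on both, and of 3 cuticle genes 0 and 1. Of 3 muscle genes 0 were higher and 1 lower on both. Beside these small counts, 24.5% of all genes tested were higher and 22.4% lower on both. The part of these tissues in the ratios of the pump genes was not tested.

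**Figure D4:**
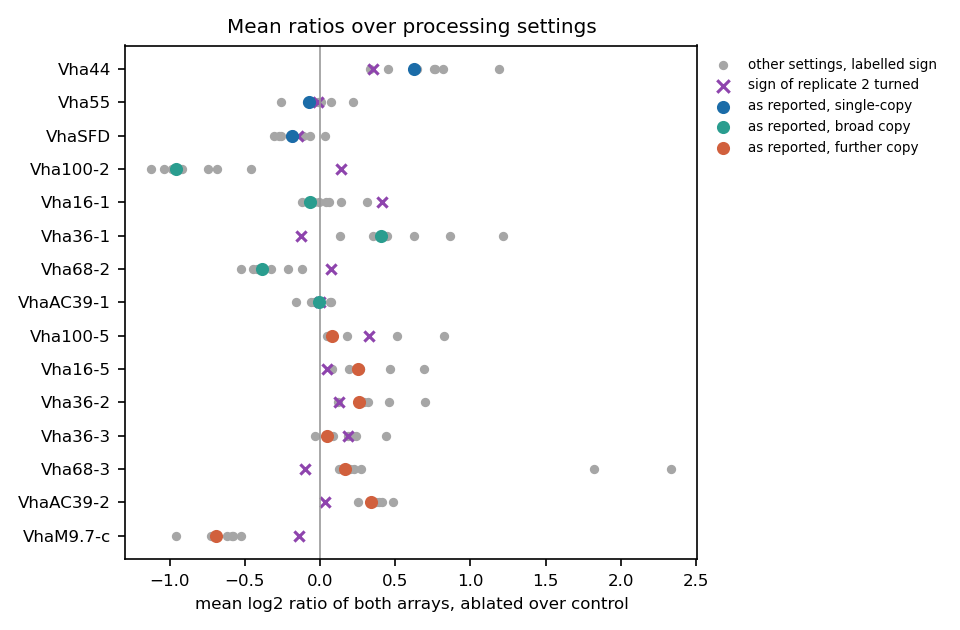
Mean log2 ratio over both arrays of the 15 tested genes as reported (coloured by copy class), under the other processing settings with the labelled sign (grey), and with the sign of replicate 2 turned (crosses). Grey points of Vha100-2, Vha68-2 and VhaM9.7-c stay left of 0, and those of Vha44 stay right of 0 between 0.33 and 1.19. The 2 points of Vha68-3 near 2 are plain background subtraction (1.82) and the authors' values (2.34).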

How the data were processed

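The authors deposited scanner output, per the file headers quantified with GenePix Pro 7.1.25: spot intensity medians and means, local background medians and SDs at 635 nm (Cy5) and 532 nm (Cy3), and the percent of saturated pixels (0 for every pump probe). They also deposited a table of log2 ratios. Set against background-subtracted scanner ratios it ran as 635 over 532 nm on replicate 1 (r = 0.999) and the other way on replicate 2 (r = -0.999), hence as ablated over control. Its medians of 0.487 and -0.115 show no centring, and what else was done to it is not stated in these sources. The labels' protocol has GAL80 active at 30 °C and the series design text has cell death induced there. The design text was followed.

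Probes were matched by CG number to the RefSeq table (12687 by locus tag, 1218 by synonym, 688 left under the file's name). Background was corrected with normexp (offset 50), ratios were normalized by loess within arrays (limma 3.58.1, R 4.3.3), and replicate 2 was turned for its dyes. Probes above local background by 2 SD in any channel were kept and the brightest stood for a gene. Ratios were tested two-sided against 0 with lmFit and eBayes over all 5971 genes, with Benjamini-Hochberg adjustment. The test was checked on simulated data, where it recovered changed genes only at a spread smaller than that observed here. Limits of folds used channel values after loess and Aquantile, with the lowest signal above background per array as floor.

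All tested pump genes are named, with the 4 listed partners of smallest p. The members, lists and copy classes were chosen with earlier results of these data known. VhaM8.9 was listed with the single-copy pump genes but is named ATP6AP2 in the RefSeq table, so it falls outside the symbol rule. It enters no count or median of the pump genes. Its log2 ratios were 0.79 and 0.31, a mean of 0.55 ± 0.34 (limma, adjusted p = 0.996), higher in ablated larvae on both arrays.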

Additional observations from a re-analysis of the deposited data

How the results depend on the processing

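These results are limited by the number of arrays and by the unsettled direction of the ratios, where either array could be the one reversed. They are also limited by signal, since 8 of the 15 tested pump genes were above background on 1 array only. The test was paired by array, because each ratio already pairs the RNAs of 1 array. Calls over pump genes and partners numbered 0 under every alternative that gave a test, which says nothing of stability at this spread between arrays. Calls over all genes numbered 0 too, except with the sign of replicate 2 turned (515). Chosen after seeing the data was the restriction to genes with a channel above background on each array.

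Pump genes higher and lower on both arrays (6 and 6) numbered 12 and 12 without the filter, 1 and 1 when every channel had to be above background, 3 and 2 with a channel above background on each array, and 3 and 0 with the sign turned. Lower on both were 3 after median centring and 2 with the authors' ratios, which move the median of all genes to 0.14 and 0.31. The median of all tested pump genes (0.048) was 0.38 in the authors' values, 0.14 with median centring, 0.13 without background correction, 0.084 with plain subtraction, 0.019 without the filter, -0.0036 with print-tip loess and -0.0088 with every channel above background, and ran from -0.040 to 0.23 with 1 array left out. The median of single-copy and widely expressed genes was -0.21 with plain subtraction, -0.14 without background correction, -0.081 with an offset of 16, -0.061 with print-tip loess, 0.070 with median centring, -0.064 without the filter, -0.51 with every channel above background, 0.15 in the authors' values, -0.0013 with probes averaged, -0.049 with the mean of spot pixels, 0.034 with the sign turned, -0.065 with a channel above background on each array, and -0.050 to -0.049 with 1 array left out. The median of further copies (0.17) was 0.081 with print-tip loess, 0.26 with plain subtraction or without background correction, 0.048 without the filter, 0.69 in the authors' values, 0.045 with the sign turned, and 0.14 to 0.30 with 1 array left out. The partner median was 0.19 with plain subtraction, -0.016 without background correction, 0.049 with print-tip loess, 0.14 with median centring, 0.031 without the filter, 0.0037 with every channel or 1 channel per array above background, 0.31 in the authors' values, -0.027 with the mean of spot pixels, and 0.11 to 0.14 with 1 array left out.

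Of the mean ratios of single pump genes, 149 differed from the reported value under an alternative, and 19 of these changed sign. With the sign turned these were Vha100-2 (0.14), Vha16-1 (0.41), Vha36-1 (-0.13), Vha68-2 (0.071) and Vha68-3 (-0.10). Vha16-1 was 0.039 without background correction, 0.14 with median centring, 0.31 in the authors' values and 0.058 with probes averaged. Vha55 was 0.074 with median centring, 0.22 in the authors' values and 0.0052 with probes averaged, and VhaAC39-1 was 0.066 after centring on the median and 0.073 with the authors' ratios. VhaSFD was 0.035 in the authors' values and Vha36-3 -0.031 with print-tip loess. With 1 array left out Vha100-5 ran from -0.25 to 0.40, Vha36-3 from -0.14 to 0.23 and Vha16-1 from -0.48 to 0.35. Except where an alternative keeps fewer genes or arrays, the cause was not tested.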
